A study of Mus musculus with 9 samples.

Results

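The 38 genes described here lie in 1 stretch of mouse chromosome 14, between 69029238 (the start of *Stc1*) and 75754517 (the end of *Cog3*) of GRCm38, an interval of 6.73 Mb. They are 38 of the 52459 gene symbols in the data. The list was chosen by the measured values themselves, as neighbouring genes of roughly 68 to 76 Mb whose RNA levels shifted together against mock cells, so that every comparison with mock below is a description of how the genes were selected. The cells are NMuMG, a mouse mammary gland epithelial line. All of them carried a stably integrated pBICEP-based vector and were kept under G418 as transfectant pools: mock cells had the empty vector, EPR cells overexpressed the lncRNA EPR (BC030870), and EPRSTOPE cells overexpressed a point mutant of it that makes no EPR peptide. RNA-Seq gave 3 libraries of each condition, which the paper calls biological triplicates. Whether the 3 libraries came from separate pools is not stated in the labels, so the tests measure the spread between these libraries. In such pools, a higher level in every cell and a larger share of cells with a high level cannot be told apart.

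Genes that sit side by side on a chromosome need not share a function. The interval holds a secreted hormone and a procollagen protease, receptors and membrane proteins, mitochondrial and Golgi enzymes, cytoskeletal adaptors, and proteins of the nucleus that act in transcription, RNA modification and nuclear transport. The results are therefore ordered by role, and the position of the genes is taken up afterwards. Levels are TMM-normalized counts per 1000000 counts (CPM), and a gene was called where edgeR's quasi-likelihood test gave an adjusted p below 0.01 with a log2 fold change of more than 0.5 in size.

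The libraries held 5972457 to 11876435 estimated counts, and 3 counts corresponded to between 0.253 and 0.502 CPM. EPR RNA had 0, 0 and 2 counts in the mock, 214 to 271 in the EPR and 28 to 39 in the EPRSTOPE libraries. Of the epithelial markers, the keratin *Krt8* was abundant in mock cells (2108 ± 121 CPM, SD, n = 3), while the adhesion molecule *Cdh1* stood at 0.84 ± 0.46 CPM (SD, n = 3) and *Epcam* had no count in any mock library. Of 10 epithelial markers, 7 could be tested, and 7 were called higher in EPR and 4 in EPRSTOPE cells. Over all genes tested, 15.2% were called higher and 12.9% lower in EPR, and 15.6% and 12.4% in EPRSTOPE cells. The summed level of the 10 epithelial markers was 3693 to 4159 CPM in mock, 9503 to 10610 CPM in EPR and 10688 to 11025 CPM in EPRSTOPE libraries. Of 10 mesenchymal markers, 6 could be tested, and 1 was called higher and 5 lower in EPR cells, and 1 higher and 2 lower in EPRSTOPE cells. The summed levels of the 10 were 4008 to 4177 CPM in mock, 2177 to 2404 CPM in EPR and 3922 to 4267 CPM in EPRSTOPE libraries. The epithelial sums were carried by *Krt8* and *Krt18*, and the mesenchymal sums by *Vim* and *Fn1*, and single markers differed from them. *Cdh1* reached 556 CPM in EPR and 403 CPM in EPRSTOPE cells (log2 fold changes 9.2 and 8.8). *Ocln* rose as well (5.27 and 4.52), and both genes were called higher in each comparison with mock. In EPRSTOPE cells *Krt8* and *Krt18* were also called higher, while *Krt7* (-0.44 on the log2 scale), *Krt19* (0.46) and *Epcam* were not called. *Vim* was at 0.25 and *Fn1* at -0.41 in these cells, both not called, and *Cdh2* (-1.06) and *Twist2* (-1.12) were called lower. *Pdgfra*, at 0 CPM in mock, was the mesenchymal marker called higher in EPR and in EPRSTOPE cells (6.4 and 6.6). The part of these changes in the members' shift was not tested. Of 4 basal markers, 2 could be tested, and 2 were called lower in EPR and 1 in EPRSTOPE cells. The other tested basal marker in EPRSTOPE cells, *Krt14*, was at 1.37 and not called (adjusted p = 0.037, edgeR), and *Trp63* was at 0 throughout. Of 6 immune and 4 endothelial markers, 1 each was tested and neither was called by edgeR (1 at an unadjusted p under 0.05, in EPR against mock), and *Adgre1* was at 0 in all libraries. DNA copy number was not analysed here.

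Sequences are shown for the 2 members most abundant per length, of which *Itm2b* also had the largest mean change among members of at least 10 CPM. Promoters are 250 bases before to 50 after the start, from RefSeq on GRCm38.p6, printed from 5′ to 3′ on the gene's strand, with GGGCGG and its reverse complement in capitals. The first is at chr14:73385240-73385539 on the minus strand and the second at chr14:74732047-74732346 on the plus strand.
*Itm2b*: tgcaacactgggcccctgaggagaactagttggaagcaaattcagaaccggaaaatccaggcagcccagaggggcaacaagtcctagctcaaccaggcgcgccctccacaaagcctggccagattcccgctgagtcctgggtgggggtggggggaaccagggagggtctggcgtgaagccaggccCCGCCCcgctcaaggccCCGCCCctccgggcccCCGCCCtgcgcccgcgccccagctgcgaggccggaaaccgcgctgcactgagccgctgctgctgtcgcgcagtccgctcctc
*Esd*: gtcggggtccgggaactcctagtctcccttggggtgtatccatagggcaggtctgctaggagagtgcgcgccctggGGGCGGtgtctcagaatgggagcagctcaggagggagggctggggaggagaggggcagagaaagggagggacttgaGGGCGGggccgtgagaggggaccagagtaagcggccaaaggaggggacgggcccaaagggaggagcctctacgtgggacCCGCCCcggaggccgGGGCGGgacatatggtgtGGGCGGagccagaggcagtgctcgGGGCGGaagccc
The *Itm2b* window holds 3 such matches and 21 CpG (GC content 69.0%), and the *Esd* window holds 6 matches and 17 CpG (68.7%). Of all 32851 promoters in the RefSeq table, 35.7% hold the motif at least once, counted on both strands. The other motifs searched on both strands were absent from both windows: TATAAA (in 13.6% of all promoters), TGANTCA (7.81%), CACCTG (20.2%) and CACGTG (7.15%). Only 13 of the 38 members had an entry in the promoter table, *Hr* not among them, so that no feature was compared over the group.

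Of the 38 members, 24 reached 1 CPM in at least 3 libraries and were tested, among 15370 genes in all. In EPR against mock, 19 of the 24 were called higher and 1 lower, whereas 15.2% of all genes tested were called higher and 12.9% lower. In EPRSTOPE against mock, 20 were called higher and 0 lower by edgeR, against 15.6% and 12.4% of all genes, and no member was lower at an unadjusted p under 0.05 or by DESeq2 or limma. The median log2 fold change of the members was 1.06 in EPR and 1.10 in EPRSTOPE cells (2.09-fold and 2.15-fold), beside -0.01 and -0.04 over all genes. Both comparisons use the same 3 mock libraries. By these calls 18 of the 24 members were raised in both populations, a count that the choice of the genes fixes, and 6 were not: *Hr*, *Reep4* and *Med4* in neither, *Rcbtb2* and *Xpo7* in EPRSTOPE cells alone, and *Lcp1* in EPR cells alone.

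**Figure D1:**
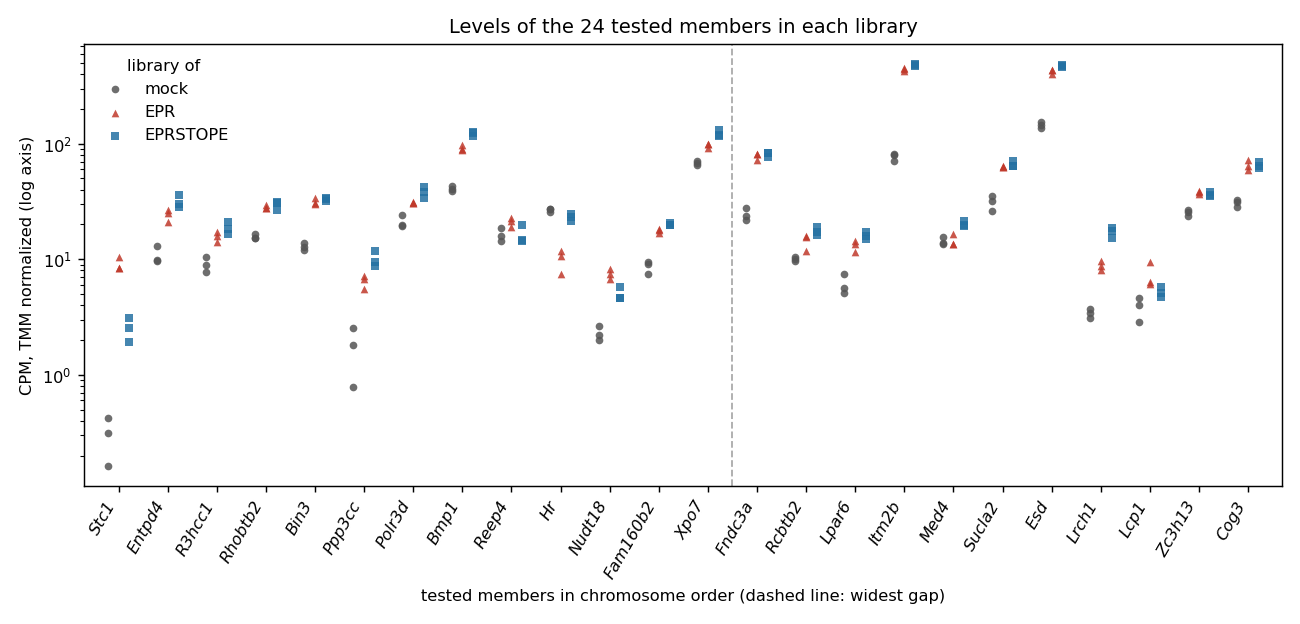
Level of each tested member (CPM, TMM normalized, log axis) in the 3 mock (circles), 3 EPR (triangles) and 3 EPRSTOPE (squares) libraries, in chromosome order, with a dashed line at the widest gap between neighbours. Most members sit higher in all 6 overexpressing libraries than in mock; *Hr* is lowest in the EPR libraries.

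Of the secreted members, 2 could be tested, and both were called higher in each of the mock comparisons. Here and in the other role classes, these counts stand beside 15.2% (EPR) and 15.6% (EPRSTOPE) of all genes called higher. The choice of the members raises the counts in every class. *Stc1*, which encodes stanniocalcin 1, a secreted glycoprotein hormone of calcium and phosphate handling, had the largest log2 fold changes of the group. It was close to the detection limit in mock libraries (2, 4 and 2 counts, 0.30 ± 0.13 CPM) and reached 8.33 to 10.5 CPM in EPR and 1.92 to 3.11 CPM in EPRSTOPE libraries. *Stc1* passed the filter for testing only through the libraries in which it was high, so its calls against mock partly follow from its being tested. The log2 fold changes were 4.92 (95% interval 4.13 to 5.72) and 3.08 (2.19 to 3.96), and the few mock counts set the width of these intervals. *Bmp1*, the secreted metalloprotease that trims procollagens, read 40.5, 43.1 and 39.2 CPM (mock), 87.5, 90.7 and 97.3 CPM (EPR) and 127, 124 and 116 CPM (EPRSTOPE). The 3 conditions did not overlap, and EPRSTOPE libraries were the highest (log2 fold changes 1.17 and 1.58, SE 0.07 each). The other secreted members, *Pebp4*, *Lgi3*, *Fgf17* and *Cpb2*, were not tested: *Fgf17*, a fibroblast growth factor, had 3 counts in all, and the other three had none.

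Among receptors and membrane proteins, 4 of 5 tested members were called higher in each of the mock comparisons (all genes: 15.2% and 15.6%). *Itm2b*, an integral membrane protein processed in the secretory pathway, read 71.1, 79.0 and 82.0 CPM in the mock libraries, 439, 448 and 428 in those of EPR, and 488, 475 and 473 in those of EPRSTOPE. Its rise was 5.65-fold and 6.18-fold (log2 fold changes 2.50 and 2.63, SE 0.06 each), far above the spread within any condition. *Fndc3a*, a membrane protein with fibronectin type III domains, read 22.1, 23.6 and 27.9 CPM (mock), 72.6, 81.2 and 81.3 CPM (EPR) and 83.0, 83.3 and 77.0 CPM (EPRSTOPE), with overlap only between the 2 overexpressing conditions (log2 fold changes 1.66 and 1.71, SE 0.09 each; 1.10 in EPR with counts scaled from TPM). *Lpar6*, a receptor for lysophosphatidic acid, read 7.46, 5.07 and 5.62 CPM in the mock libraries, 11.6, 14.3 and 13.5 in those of EPR, and 15.8, 14.8 and 17.1 in those of EPRSTOPE. Mock was lowest and EPRSTOPE highest without overlap (log2 fold changes 1.13 and 1.42, SE 0.17 each), and *Lpar6* lies within the bounds of *Rb1* on the other strand.

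*Entpd4*, a nucleotidase of the Golgi and lysosome, read 12.9, 9.71 and 9.93 CPM (mock), 25.3, 21.1 and 26.7 CPM (EPR) and 30.2, 28.5 and 35.8 CPM (EPRSTOPE). It had log2 fold changes of 1.19 and 1.56 (SE 0.14 each), and its value is uncertain to the extent that reads were shared with its near-identical neighbour *Entpd4b*. *Reep4*, an endoplasmic reticulum protein that helps to clear membranes from chromosomes, read 14.4, 18.8 and 16.0 CPM in the mock libraries, 22.8, 21.6 and 19.1 in those of EPR, and 14.7, 14.3 and 19.9 in those of EPRSTOPE. EPR libraries lay just above mock and EPRSTOPE libraries overlapped with it, and neither difference was called (log2 fold changes 0.36 and -0.01, SE 0.15 each). The receptors *Gfra2* (for neurturin), *Cysltr2* (for cysteinyl leukotrienes) and *Htr2a* (for serotonin) were not tested; *Gfra2* had at most 3 counts in a library, and the other two had none.

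The metabolic and trafficking members were the most even of the 5 role classes, with medians of 1.03 and 1.08 and interquartile ranges of 0.41 and 0.11 in EPR and EPRSTOPE cells. *Esd*, an esterase that hydrolyses S-formylglutathione, was the most abundant member per length in mock cells (228 ± 3.69 TPM, SD, n = 3), ahead of *Itm2b* (41.3 ± 5.34 TPM). It read 135, 156 and 145 CPM (mock), 437, 436 and 398 CPM (EPR) and 462, 484 and 471 CPM (EPRSTOPE), 2.91-fold and 3.25-fold over mock (log2 fold changes 1.54, SE 0.06, and 1.70, SE 0.07). *Sucla2*, a subunit of the mitochondrial succinyl-CoA synthetase, read 26.1, 32.2 and 35.3 CPM in the mock libraries, 64.7, 63.3 and 62.8 in those of EPR, and 70.5, 64.6 and 63.6 in those of EPRSTOPE. Mock libraries were all lower, and the 2 overexpressing conditions overlapped (2.02-fold and 2.10-fold over mock). *Cog3*, a subunit of the Golgi tethering complex COG, read 31.1, 28.4 and 32.4 CPM (mock), 72.6, 63.8 and 59.4 CPM (EPR) and 68.8, 64.6 and 61.2 CPM (EPRSTOPE). Its log2 fold changes of 1.09 and 1.08 (SE 0.09 each) were nearly the medians of the group.

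*Fam160b2* read 9.48, 9.07 and 7.49 CPM in the mock libraries, 16.8, 17.9 and 18.1 in those of EPR, and 19.7, 20.5 and 19.7 in those of EPRSTOPE. *R3hcc1*, which encodes an R3H-domain protein, read 10.4, 8.97 and 7.81 CPM (mock), 15.9, 17.2 and 14.1 CPM (EPR) and 16.4, 20.8 and 18.3 CPM (EPRSTOPE). Both were higher than mock in all 6 overexpressing libraries, by 1.03 and 1.21 for *Fam160b2* (SE 0.12 each) and by 0.81 and 1.05 for *R3hcc1* (SE 0.15 each) on the log2 scale. *Rcbtb2* read 9.63, 10.6 and 10.0 CPM in the mock libraries, 15.5, 15.8 and 11.8 in those of EPR, and 18.97, 16.3 and 17.3 in those of EPRSTOPE. Its EPR libraries also lay above mock, but the difference was not called (log2 fold change 0.51, SE 0.14; 0.65 and called without EPR library 208), while that of EPRSTOPE was (0.79, SE 0.14), a call lost with counts scaled from TPM (0.66, adjusted p = 0.02, edgeR). *Nudt18*, a nudix hydrolase of oxidised nucleotides, averaged 2.28 ± 0.33 CPM over mock, 7.46 ± 0.74 over EPR and 4.99 ± 0.67 over EPRSTOPE libraries (SD, n = 3), and was higher in EPR than in EPRSTOPE libraries without overlap. In this class 6 of 7 tested members were called higher in EPR and 7 of 7 in EPRSTOPE cells (all genes: 15.2% and 15.6%). *Phyhip* was not tested, with at most 2 counts in a library.

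Among signalling and cytoskeletal members, 5 of 5 tested were called higher in EPR and 4 of 5 in EPRSTOPE cells (all genes: 15.2% and 15.6%). *Bin3*, a BAR-domain protein, read 13.8, 12.9 and 11.97 CPM (mock), 30.0, 34.1 and 30.6 CPM (EPR) and 33.0, 33.9 and 31.6 CPM (EPRSTOPE). *Rhobtb2*, a BTB-domain protein, read 16.6, 15.3 and 15.1 CPM in the mock libraries, 29.4, 27.8 and 28.0 in those of EPR, and 26.8, 31.1 and 31.0 in those of EPRSTOPE. In both, mock libraries were lowest and the overexpressing conditions overlapped (log2 fold changes 1.297 and 1.36 for *Bin3*, 0.86 and 0.93 for *Rhobtb2*, SE 0.10 each). *Lrch1*, a protein with leucine-rich repeats and a calponin homology domain, read 3.42, 3.69 and 3.09 CPM (mock), 9.60, 8.71 and 8.13 CPM (EPR) and 17.6, 18.5 and 15.4 CPM (EPRSTOPE). The 3 conditions were fully separate (log2 fold changes 1.38 and 2.34, SE 0.16 each).

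*Ppp3cc*, a catalytic subunit of calcineurin, averaged 1.70 ± 0.88 CPM over mock, 6.48 ± 0.87 over EPR and 10.0 ± 1.55 over EPRSTOPE libraries (SD, n = 3), and showed the same order as *Lrch1*. *Lcp1*, the actin-bundling protein L-plastin, averaged 3.84 ± 0.92 CPM over mock, 7.29 ± 1.87 over EPR and 5.19 ± 0.53 over EPRSTOPE libraries (SD, n = 3). Its call in EPR cells (log2 fold change 0.95, SE 0.25) was lost when mock library 204 or 205 or EPR library 206 or 208 was left out (adjusted p = 0.021, 0.042, 0.012 and 0.042 in edgeR's quasi-likelihood test) and with counts scaled from TPM (adjusted p = 0.023, edgeR). The EPRSTOPE difference was not called (0.46, SE 0.26; 0.26 without mock library 205). With protein-coding transcripts only, the values were 2.04 in EPR and 1.45 in EPRSTOPE cells, more than 1.5 times those over all transcripts. The adaptors *Sorbs3* (vinexin), *Dok2* and *Dmtn* (dematin) had at most 9 counts in a library and were not tested.

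The nuclear members shifted least of the 5 role classes, with medians of 0.50 in EPR and 0.52 in EPRSTOPE cells. *Xpo7*, a nuclear transport receptor, read 68.5, 70.6 and 65.4 CPM in the mock libraries, 99.2, 98.5 and 91.0 in those of EPR, and 131, 117 and 120 in those of EPRSTOPE. The 3 conditions were separate, yet the EPR difference of 0.50 (0.498, SE 0.07) fell just under the fold cut-off, while EPRSTOPE reached 0.85 (SE 0.07). Without mock library 204, EPR library 208 or EPRSTOPE library 209 the EPR difference was called, at 0.52, 0.55 and 0.51. *Polr3d*, a subunit of RNA polymerase III, read 19.3, 24.1 and 19.9 CPM (mock), 31.2, 30.4 and 30.8 CPM (EPR) and 42.2, 34.1 and 38.3 CPM (EPRSTOPE). *Zc3h13*, a component of the complex that methylates adenosines in mRNA, read 25.8, 26.9 and 23.8 CPM in the mock libraries, 36.8, 38.6 and 37.9 in those of EPR, and 38.5, 36.1 and 35.4 in those of EPRSTOPE. Both were called higher in the 2 conditions with changes of 0.52 to 0.85 on the log2 scale, and the call was lost without mock library 203 (0.49) or 205 (0.49) for *Polr3d* in EPR, and without mock library 205 (0.47) or EPRSTOPE library 209 (0.49) for *Zc3h13* in EPRSTOPE, since these values drop below the fold cut-off. Counts scaled from TPM gave 0.88 and 0.84 for *Zc3h13*.

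*Med4*, a Mediator subunit, read 13.7, 15.7 and 13.8 CPM (mock), 16.5, 13.6 and 13.6 CPM (EPR) and 19.7, 21.2 and 19.3 CPM (EPRSTOPE). EPR libraries overlapped with mock (log2 fold change 0.02, SE 0.12), and the higher EPRSTOPE libraries stayed just under the fold cut-off (0.48, SE 0.12; 0.54 and called without mock library 204). *Hr*, the hairless corepressor, went the other way in EPR cells: it read 25.5, 27.2 and 27.2 CPM in the mock libraries, 11.8, 10.6 and 7.48 in those of EPR, and 23.2, 24.5 and 21.3 in those of EPRSTOPE. The EPR libraries were the lowest, at 0.37 of the mock level (log2 fold change -1.42, SE 0.15), while EPRSTOPE libraries lay slightly under mock and were not called (-0.21, SE 0.14). *Egr3*, a zinc finger transcription factor, *Piwil2*, a PIWI protein of piRNA pathways, and *Npm2*, an oocyte nucleoplasmin, were not tested, and their highest count was 24, for *Egr3* in an EPRSTOPE library. In all, 5 of the 14 untested members had 0 counts in every library, and these data do not show whether the silent genes of the interval shifted.

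**Figure D2:**
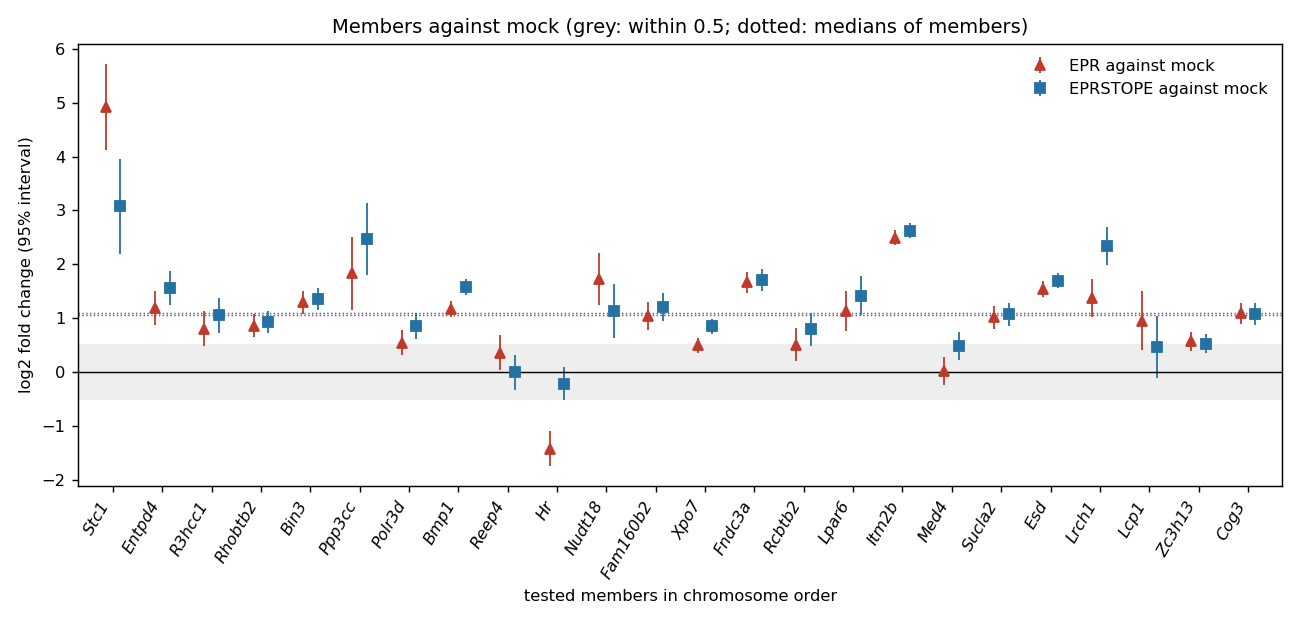
Log2 fold change against mock of each tested member with its 95% interval, for EPR (triangles) and EPRSTOPE (squares), in chromosome order; grey marks changes within 0.5 and dotted lines the medians of the members, 1.06 and 1.10. All intervals lie above 0 apart from those of *Hr* in both conditions, *Med4* in EPR, and *Reep4* and *Lcp1* in EPRSTOPE.

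Library by library, the shift was even. The median over the 24 tested members of the log2 ratio to the mock mean was 0.99, 1.02 and 1.07 in the EPR and 1.17, 1.12 and 1.01 in the EPRSTOPE libraries, and between -0.06 and 0.06 in the mock libraries (ratios of CPM + 0.5, pooled SD over libraries 0.062). In each of the 6 overexpressing libraries, 22 or 23 of the 24 members were above their mock mean. Every EPR library exceeded every mock library for 22 members, and the same count was found for EPRSTOPE, where 28.9% and 28.2% of all genes tested showed such a separation. The summed level of the 38 members was 588 to 631 CPM in mock, 1509 to 1584 CPM in EPR and 1726 to 1772 CPM in EPRSTOPE libraries. Without *Itm2b* and *Esd*, the sums were 381 to 397, 683 to 704 and 782 to 822 CPM, so the higher total did not rest on these 2 genes alone.

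A log2 fold change between 0.3 and 1.3 was found for 15 of 24 members in EPR (62.5%, against 22.5% of all genes) and for 12 of 24 in EPRSTOPE cells (against 21.7% of all genes). The interquartile range was 0.86 and 0.78 for the members, and 0.81 and 0.84 for all genes, so that the members scattered around their median about as widely as all genes did. The 13 tested members on the plus strand had medians of 1.01 and 1.07 and the 11 on the minus strand 1.09 and 1.21.

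The shift was visible at the level of transcripts as well. Of 53 transcripts of the 24 members that passed the same filter, 47 had a mean above mock in EPR and 46 in EPRSTOPE cells, and 41 of the 53 are annotated as protein-coding. *Fndc3a* shows how transcripts of a gene could differ: its long isoforms Fndc3a-201 and Fndc3a-205 were at 9.10 and 11.0 CPM in mock, 43.4 and 30.2 in EPR, and 38.4 and 36.3 in EPRSTOPE cells, while Fndc3a-204 was at 1.81, 1.24 and 1.96 CPM. In *Hr*, the main isoform Hr-201 averaged 21.3 ± 2.58 CPM over mock, 5.69 ± 1.21 over EPR and 14.5 ± 6.27 over EPRSTOPE libraries (SD, n = 3), whereas Hr-205 averaged 2.24 ± 2.48, 3.85 ± 3.38 and 7.04 ± 6.26 CPM. For *Polr3d*, Polr3d-202 was at 6.75 ± 5.86 CPM in mock and 19.9 ± 4.87 in EPR cells, whereas Polr3d-201 was at 14.3 ± 4.97 and 10.9 ± 5.23. Division of reads between isoforms is an estimate, and its spread between libraries was wide for several of these transcripts.

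The difference between EPR and EPRSTOPE libraries was not itself used to choose the genes. The same libraries were used, however, and the choice of genes raised in both over the same mock limits how far the 2 conditions can differ. The direct comparison is thus not independent of the choice and is given as a description. EPR RNA itself differed between them (24.9 against 4.24 CPM, log2 fold change 2.56, adjusted p = 2e-06, edgeR). The 2 conditions thus differ in EPR level as well as in the peptide. Here 1 member was called higher and 2 lower in EPR cells, against 6.86% and 6.35% of all genes tested, so that the members' share was close to that of all genes. *Stc1* (9.07 ± 1.21 CPM in EPR, 2.52 ± 0.59 CPM in EPRSTOPE) had a log2 fold change of 1.85 (95% interval 1.25 to 2.44, adjusted p = 0.00031, quasi-likelihood test of edgeR, Benjamini-Hochberg). *Hr* was lower in EPR cells by a log2 fold change of -1.21 (-1.53 to -0.88, adjusted p = 7.7e-05), and so was *Lrch1* with -0.96 (-1.27 to -0.64, adjusted p = 0.00036). The libraries of the 2 conditions did not overlap for these 3 genes. In all, 3 of the 24 members had every EPR library above every EPRSTOPE library, beside 20.8% of all genes tested. Another 13 had every EPR library below, a larger share than the 22.2% of all genes.

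The remaining 21 members were not called, except that *Med4* was called lower (-0.56) without EPR library 206. *Bmp1* and *Xpo7* had an adjusted p under the threshold (0.00051 and 0.0015, edgeR) with differences smaller than the fold cut-off, -0.41 (95% interval -0.56 to -0.27) and -0.35 (-0.49 to -0.21). For 10 members the whole 95% interval lay within 0.5 on either side of 0, among them *Cog3* (0.01, -0.18 to 0.20), *Fndc3a* (-0.05, -0.23 to 0.14) and *Esd* (-0.16, -0.29 to -0.02). For the other 11 it reached past 0.5, as in *Ppp3cc* (-0.64, -1.22 to -0.06, adjusted p = 0.094) and *Nudt18* (0.59, 0.14 to 1.04, adjusted p = 0.049), so these libraries leave a difference of that size possible. In sign, 18 of 24 members were lower in EPR than in EPRSTOPE cells, with a median of -0.17, whereas 50.7% of all genes tested were higher and the median of all genes was 0.01. A like tilt was found elsewhere on chromosome 14, so it was not particular to the members. In the longer stretch described below, 165 of 264 tested genes outside the interval were lower (median -0.13). Before that stretch, 116 of 180 were lower (median -0.14). The per-library medians of the members overlapped between the 2 conditions.

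**Figure D3:**
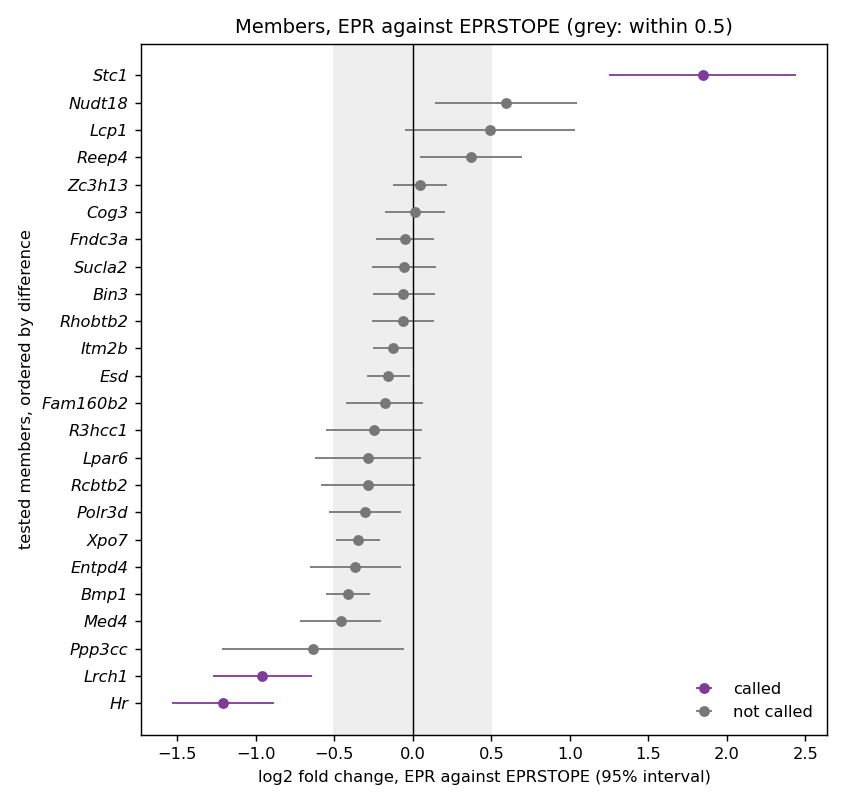
Log2 fold change of EPR against EPRSTOPE for each tested member with its 95% interval, ordered by size; grey marks differences within 0.5. *Stc1* (1.85), *Lrch1* (-0.96) and *Hr* (-1.21) are the 3 called members, and most of the others lie slightly below 0.

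By position, the members fall into 2 blocks, separated by the widest gap between the starts of neighbouring members, 1.65 Mb from *Gfra2* to *Fndc3a*. The first block (13 tested) had medians of 1.03 in EPR and 1.13 in EPRSTOPE, and the second (11 tested) 1.09 and 1.08. *Itm2b* and *Esd* are in the second block, and *Stc1*, *Hr* and *Reep4* in the first. The 3 members near or below 0 in at least 1 condition lay between members that were called higher in EPR and in EPRSTOPE cells: *Reep4* and *Hr* lie between *Bmp1* and *Nudt18*, and *Med4* lies between *Itm2b* and *Sucla2*.

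The list does not hold every gene of the interval. Another 20 tested genes start within it, with medians of 0.88 in EPR, 1.07 in EPRSTOPE and -0.11 in the direct comparison. Of these, *Gm37094* and *Gm20236* had the same value in every library, and both were called higher in EPR cells. They are therefore not separate measurements. Over all genes tested, 15.2% were called higher and 12.9% lower in EPR, and 15.6% and 12.4% in EPRSTOPE. In each mock comparison 9 of the 20 genes were called higher and 2 lower. The 5 with the highest mean over all 9 libraries were *Slc25a37*, a mitochondrial iron importer (33.8 CPM in mock, log2 fold changes 1.66 and 1.77), *Slc39a14*, a zinc transporter (23.1 CPM, 1.52 and 1.79), *Ccar2* (32.1 CPM, 0.66 and 0.79), the death receptor *Tnfrsf10b* (13.9 CPM, 1.99 and 2.04) and *Loxl2*, a lysyl oxidase of the matrix (57.4 CPM, -0.55 and -1.02). *Loxl2* thus fell in both conditions within the interval. Ranked by mock level alone, the processed pseudogene *Cbx3-ps6*, named after its values were seen, would be the second (51.7 CPM), and it had log2 fold changes of -0.87, not called, and -1.22, called lower. *Ccar2* overlaps the end of *Bin3* and *Dok2* the start of *Xpo7*, each on the opposite strand, and *Npm2* overlaps *Xpo7* on the same strand. The library kit marks strand, but a strand setting in the quantification is not given in the sources used here, so reads in these overlaps could have been assigned to either gene.

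The shift did not stop at the ends of the list. *Stc1* is the first member, and the tested gene before it, *Adam28*, had log2 fold changes of 0.84 (SE 0.51) and 0.70 (SE 0.53), not called, at under 1 CPM in every condition mean. *Cog3* is the last member, and the gene after it, *Slc25a30*, was called higher in both, with 1.07 (SE 0.10) and 0.89 (SE 0.11). Over the 20 tested genes before *Stc1* the medians were 0.67 and 0.62, and over the 20 after *Cog3* 0.67 and 0.88.

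In windows of 10 neighbouring tested genes, chromosome 14 gave 48 windows, 6 of which hold members. A longer stretch was defined as the unbroken run of windows, counted back from the last, with medians above 0 in both comparisons. By this rule it starts at 46.1 Mb and holds 30 windows, all above 0 by definition. Of the 18 windows before it, 3 had both medians above 0. Tested genes after the last full window, which ends at 122106974, are in no window. The 6 windows with members ranged from 0.53 to 1.42 in EPR and from 0.66 to 1.57 in EPRSTOPE, and the 24 other windows of this stretch from 0.20 to 1.29 and from 0.40 to 1.22. Over the 264 tested genes of the stretch outside the interval the medians were 0.66 and 0.77, and over the 180 tested genes before the stretch -0.25 and -0.12. In the single libraries, the stretch outside the interval lay at 0.59 to 0.63 in EPR and 0.70 to 0.77 in EPRSTOPE. The members were thus part of a longer stretch with higher levels, which was noticed after the values were seen and is given as a description.

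**Figure D4:**
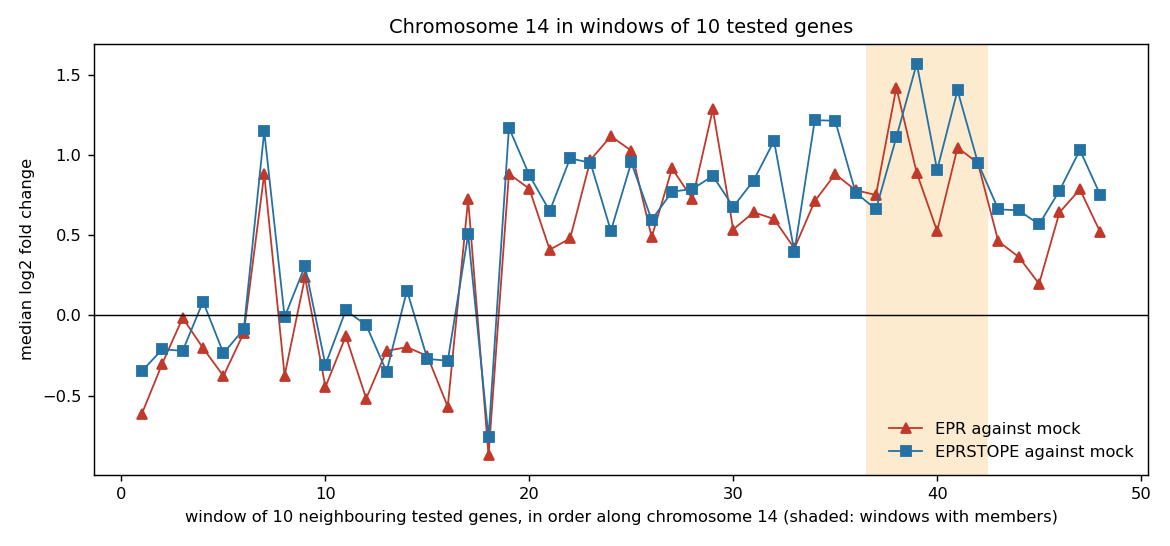
Median log2 fold change against mock of EPR (triangles) and EPRSTOPE (squares) in 48 windows of 10 neighbouring tested genes, in order along chromosome 14; the 6 windows with members are shaded. The stretch of 30 windows from 46.1 Mb onwards, with and without members, was defined by medians above 0 in both comparisons.

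Set beside other chromosomes, the whole of chromosome 14 had medians of 0.48 and 0.58, and chromosome 15 had 0.49 and 0.52. The mitochondrial genes stood at 0.89 and 0.32 and chromosome 19 at -0.02 and -0.56. The other 17 chromosomes ranged from -0.27 to 0.03 in EPR and from -0.17 to 0.02 in EPRSTOPE cells.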

How the data were processed

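RNA-Seq of 9 libraries was used, 3 each of mock, EPR and EPRSTOPE cells, grouped by their genotype labels and named by the library numbers in the titles. The authors quantified reads with kallisto 0.43.1 on Gencode transcripts of GRCm38.p5 and deposited 2 values for each of 131100 transcripts, an unnormalized estimated count and a length-scaled TPM value. The submitters' processing notes also list bcl2fastq 2.0 and hg38, without a role. The members and lists were chosen with earlier results of these data known.

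Estimated counts were summed per gene symbol and rounded. The 15370 genes that reached 1 CPM in 3 or more libraries were fitted with edgeR 4.0.16 in R 4.3.3 (TMM, quasi-likelihood F test, 1 factor of 3 levels over all libraries) with Benjamini-Hochberg adjustment. Genes were called at a log2 change above 0.5 in size and an adjusted p below 0.01. The paper's methods give these cut-offs for transcripts tested with limma, and the legend of its overlap diagram gives stricter ones. Standard errors come from the F statistic. Library totals of 5972457 to 11876435 set the precision, and chi-square per degree of freedom between libraries of a condition was 4.70 to 10.7. That value cannot show whether the libraries came from separate pools, since estimated counts also vary with the division of reads between similar genes. All libraries were counted as separate samples. Every member is named, with values per library where a condition mean reached 10 CPM. Alternatives were DESeq2 1.42.0, limma 3.58.1 (voom), other filters, counts scaled from TPM, protein-coding transcripts only, fits of the compared conditions only, a log2 cut-off of 1, and leaving out each library. The scripts were tested on simulated counts. Positions are from Gencode M21 (GRCm38), and matched 52234 symbols.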

Additional observations from a re-analysis of the deposited data

Results flagged for a closer look

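In the direct test of EPR against EPRSTOPE cells, 1 member was called higher and 2 lower of 24 tested, close to the shares of all genes (6.86% and 6.35%). *Stc1* was higher in EPR cells, with a log2 fold change of 1.85 and every EPR library above every EPRSTOPE library, as in 20.8% of all genes. *Hr* (-1.21) and *Lrch1* (-0.96) were lower in EPR cells, with every EPR library below every EPRSTOPE library, as in 22.2% of all genes. Over the alternatives run, the value ranged from 1.67 to 2.04 for *Stc1*, from -1.36 to -1.02 for *Hr* and from -1.03 to -0.89 for *Lrch1*. The call of *Lrch1* was lost with counts scaled from TPM (adjusted p = 0.014, edgeR; range over its alternatives 2.6e-05 to 0.014), and *Stc1* could not be fitted with a filter of 10 counts in every library.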

How the results depend on the processing

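The counts of called members were within 1.5 times the reported count under every alternative run: 15 to 21 in EPR against mock, 15 to 21 in EPRSTOPE against mock and 2 to 4 in EPR against EPRSTOPE. The median of the members in EPR against mock was 0.95 with no filter and 1.14 with counts scaled from TPM. In EPRSTOPE against mock it was 1.35 with counts scaled from TPM and 1.06 to 1.18 when 1 library was left out, and in EPR against EPRSTOPE -0.25 with no filter. For the other genes of the interval, the median in EPR against mock was 0.76 with 10 counts in every library, 1.04 (TPM), 0.69 (protein-coding transcripts) and 1.02 (compared conditions only). In EPRSTOPE against mock these settings gave 0.93, 1.36, 1.23 and 0.98, leaving out 1 library gave 0.86 to 1.21, and protein-coding transcripts gave -0.27 in the direct comparison.

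Of the values of single members under alternatives, 1107 kept their sign and their side of the threshold, 12 dropped below it, 11 passed it and 16 changed sign. The sign changes were of values near 0 that were not called: *Rhobtb2* in the direct comparison (0.06 with TPM-scaled counts), *Reep4* in EPRSTOPE (0.001 with DESeq2, 0.13 with TPM-scaled counts, 0.011 with compared conditions only, and -0.18 to 0.091 with 1 library left out), *Hr* in EPRSTOPE (0.026 with TPM-scaled counts), *Fndc3a* in the direct comparison (0.007 with protein-coding transcripts, -0.088 to 0.007 with 1 library left out), *Med4* in EPR (-0.009 with protein-coding transcripts, -0.078 to 0.086 with 1 library left out) and *Cog3* in the direct comparison (-0.07 to 0.09 with 1 library left out). The EPR difference of *Xpo7* passed the fold cut-off under 7 of its alternatives, at 0.51 to 0.84. The cause of these changes was not tested.

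With TPM-scaled counts, 3000, 3043 and 901 genes were called in the 3 comparisons, against 4316, 4302 and 2031. Members below about 0.5 CPM could not be resolved at this depth.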
